A study of Cochliomyia hominivorax with 18 samples.

Results

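The midgut transcriptome of larvae of the New World screwworm, Cochliomyia hominivorax, was compared after and during rearing with tetracycline. The comparison takes 6 of the 18 midgut libraries of the study, chosen by their sample titles: 3 from larvae after tetracycline (post-Tc) and 3 from larvae during tetracycline (on-Tc). Another 3 libraries came from larvae before the antibiotic (control) and lend their spread to the fit. All groups are guts of production flies. The labels do not give the strain, the larval age, the tetracycline dose, the time since withdrawal or whether animals were pooled. Nor do they say whether numbered libraries of a group are separate animals, pools or repeat preparations. The p-values below therefore reflect variation among the sequenced libraries, which may be technical. Post-Tc larvae were collected later than on-Tc larvae, and collection time cannot be told apart from withdrawal.

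Screwworm larvae eat living tissue of warm-blooded hosts. In fly larvae the midgut is the organ of digestion and absorption: its epithelium secretes proteases and lipases, takes up nutrients and meets the bacteria of the meal, against which it keeps antimicrobial peptides and lysozymes. Tetracycline binds the bacterial ribosome and blocks protein synthesis there, and mitochondrial ribosomes, being of bacterial descent, are a known secondary target. The antibiotic is also the switch of tet-off transgenes, which are silent while it is in the diet. The comparison asks what differs in the larval gut once the drug is withdrawn.

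The table pairs its IDs, which consist of a gene number and a transcript number, with no gene names. No transcript could therefore be given a name or function, no gene group could be counted, and the midgut label could not be checked against marker genes. The IDs below are used as they stand.

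Post-Tc libraries held 41502887, 58865469 and 30994870 counts, and on-Tc libraries 30221028, 46958717 and 41321373. Thinned to a total of 30221028, post-Tc libraries detected 14135, 14224 and 13032 transcripts, against 13820, 13715 and 13901 in on-Tc libraries. The third post-Tc library was the lowest of the 6, and the means of 13797 ± 664 and 13812 ± 93.3 (SD, n = 3 each) differed by less than the spread between libraries (exact permutation test, two-sided, p = 1, where 3 libraries against 3 cannot go below 0.1). Without that library the post-Tc mean lay above the on-Tc mean, by 367.5 transcripts.

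Distances between libraries of a group overlapped those between groups. The root-mean-square difference in log2 CPM (counts scaled to a common library size with TMM factors) was 0.880 to 1.34 between post-Tc libraries, 0.974 to 1.19 between on-Tc libraries and 0.856 to 1.37 between a post-Tc and an on-Tc library. Group membership held 20.6% of the variance among the 6 libraries, close to what an arbitrary division into groups of this size holds on average. On the first principal component of the 9 larval libraries, with 33.1% of the variance, post-Tc 1 and post-Tc 2 lay at -44.9 and -68.2 beside control 2 at -58.4. The third post-Tc library lay at 55.4, next to on-Tc 2 at 61.5, while on-Tc 1 and on-Tc 3 stood at 0.629 and 21.6. The counts near the threshold, the named transcripts, the adjacent gene numbers and the values set beside adults are therefore also given without these libraries.

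**Figure D1:**
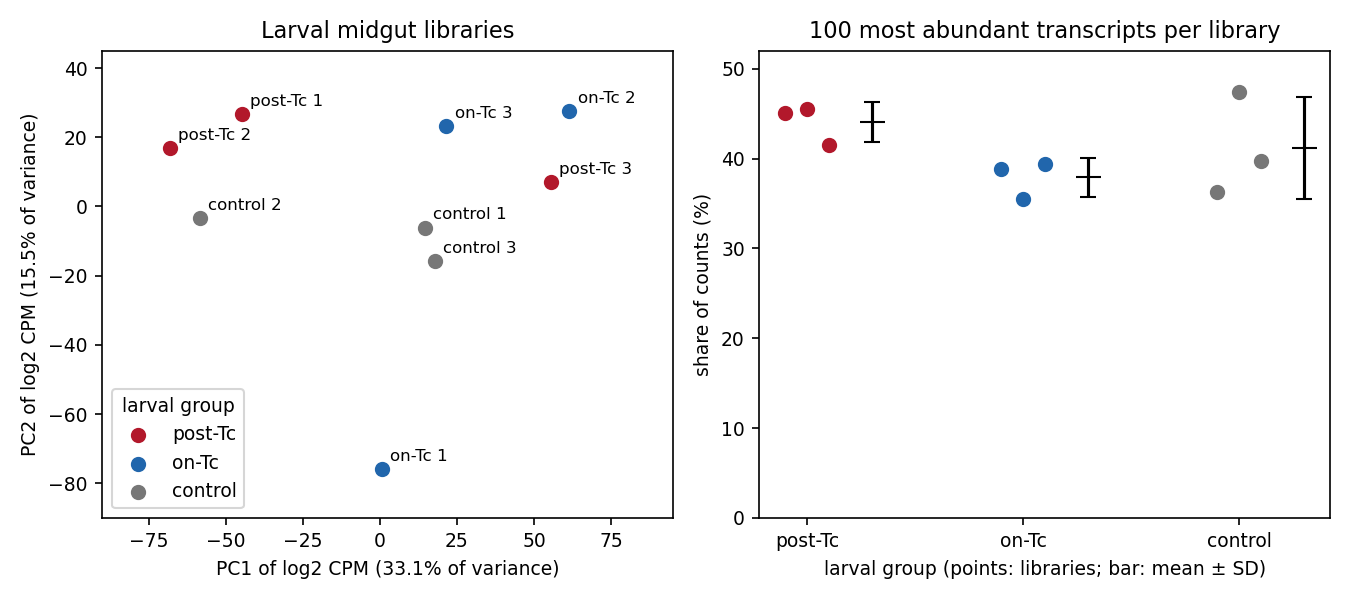
Left, the 9 larval midgut libraries on the first and second principal components of log2 CPM, coloured by group; post-Tc 1, post-Tc 2 and control 2 sit apart at the left, and post-Tc 3 sits beside on-Tc 2. Right, the share of each library's counts held by its own 100 most abundant transcripts, with mean ± SD per group (n = 3); post-Tc libraries lie between 41.5% and 45.6%, on-Tc libraries between 35.4% and 39.4%, and controls, at 36.3% to 47.4%, overlap both.

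In the 6 libraries compared, post-Tc counts were somewhat more concentrated in abundant transcripts than on-Tc counts. In post-Tc libraries the 100 most abundant transcripts of each library took 45.1%, 45.6% and 41.5% of the counts. In on-Tc libraries they took 38.9%, 35.4% and 39.4%. The groups did not overlap, and the means of 44.0% ± 2.22 and 37.9% ± 2.14 (SD, n = 3 each) differed by 6.15 percentage points, with the smallest p that this design allows (exact permutation test, two-sided, p = 0.1). Control libraries, at 36.3%, 47.4% and 39.8%, overlapped both groups. With a library left out the difference lay between 4.93 and 7.42 percentage points. For the 10 most abundant transcripts the shares overlapped, at 14.4%, 13.5% and 11.2% post-Tc and 10.2%, 8.91% and 11.6% on-Tc (exact p = 0.2).

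Single abundant transcripts were more often fitted higher than lower, in a count that depended on the scaling. Over a list fixed by the mean of the 6 libraries, 72 of the 100 most abundant transcripts were fitted higher post-Tc and 28 lower, where 49.8% of all 11584 tested transcripts were higher. An unadjusted p under 0.05 by edgeR's quasi-likelihood test was reached by 10 of the 100, all higher post-Tc, against a background of 3.01% of tested transcripts in that direction. None of the 10 passed an FDR of 0.05. The count of 72 became 56 when libraries were scaled by totals alone, a scaling that moved the median log2 difference of all transcripts by -0.19, and also 56 without post-Tc 3, where the difference in the share of counts was 7.42 points. Of the fits with 1 of the 6 libraries left out, that without on-Tc 2 had the largest count, 85, and the smallest difference in share, 4.93 points. A larger count thus did not go with a larger difference in share. The median size of the change was 1.29-fold in either direction and the largest was 4.69-fold, and 71 of the 100 had a 95% interval that lay within 4-fold.

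The 2 most abundant larval transcripts differed within groups by as much as between them. In post-Tc larvae g11374.t1 had 18530, 6627 and 30460 CPM, and in on-Tc larvae 20040, 15610 and 7856 CPM. Its groups overlapped, and its log2 difference was 0.35 ± 0.58 (SE; edgeR FDR 0.869), with the sign turned to -0.25 without post-Tc 3. In post-Tc larvae g12854.t1 had 36170, 10010 and 17540 CPM, against 6123, 11200 and 10520 CPM in on-Tc larvae. Post-Tc 2 lay inside the on-Tc range, so that a log2 difference of 1.19 ± 0.67 (SE; edgeR FDR 0.811) was not resolved, and it was 0.58 without post-Tc 1. With post-Tc 1, post-Tc 2 and control 2 left out, the log2 difference was 1.07 for g11374.t1 and 0.92 for g12854.t1. Controls held 7103, 39270 and 24850 CPM of g12854.t1, a wider span than that of the post-Tc libraries.

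No transcript passed the threshold between post-Tc and on-Tc larvae. By edgeR's quasi-likelihood test over 11584 transcripts 0 (0%) were called at an FDR of 0.05. At an unadjusted p under 0.05 there were 617 transcripts, or 5.33% of those tested, 349 higher post-Tc (3.01%) and 268 lower (2.31%). The smallest p was 3.64e-05 (edgeR FDR 0.422), in a transcript outside the limits set for those described by ID below. There were 75 transcripts under 0.01 and 3 under 0.001. These shares are near or below those that such thresholds pass when nothing differs, so the counts are not by themselves a sign of change. Groups that did not overlap in CPM were found for 1099 transcripts, or 9.49%, with 639 higher (5.52%) and 460 lower (3.97%). DESeq2 called 22 of 11523 transcripts (0.191%) and limma-voom called 0 (0%), with 904 and 504 transcripts at an unadjusted p under 0.05.

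The 617 transcripts are described only as the candidates closest to the threshold. Those higher post-Tc had a median fitted difference of 2.41-fold and those lower 2.89-fold, sizes inflated by having been picked for their p. They were more often scarce than abundant transcripts: the share at an unadjusted p under 0.05 was 7.30% of transcripts with a mean of up to 2.92 CPM, 5.85% of those between and 2.82% of those from 23.2 CPM. With totals alone the split turned from 349 higher and 268 lower to 163 higher and 499 lower.

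**Figure D2:**
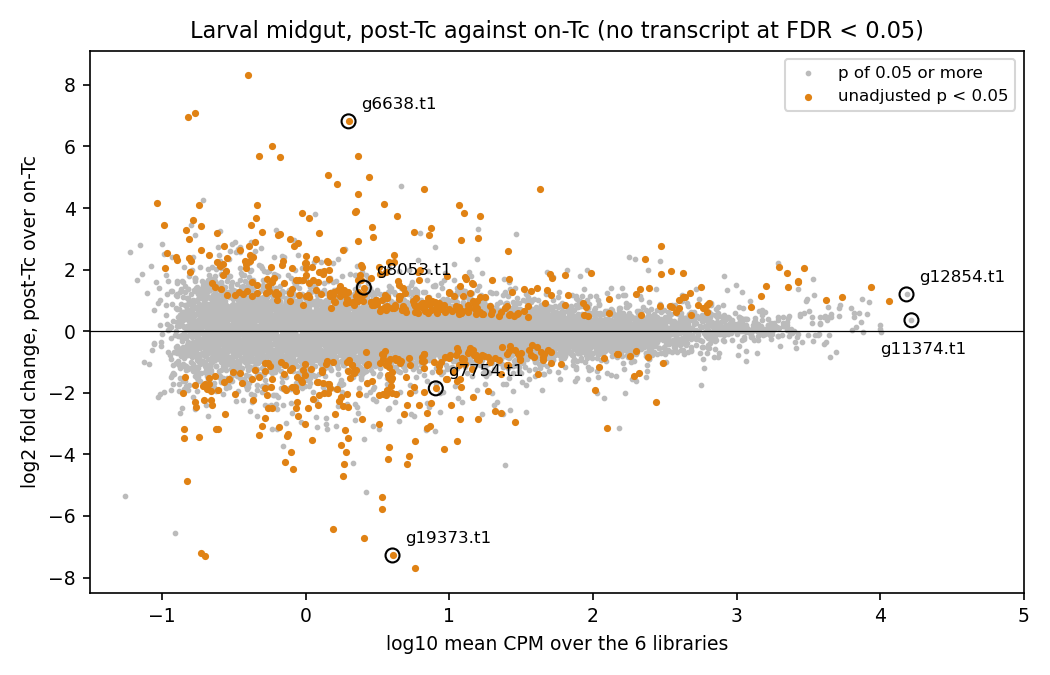
Fitted log2 fold change of post-Tc over on-Tc larvae against the log10 mean CPM of the 6 libraries for 11584 transcripts. Orange points are the 617 with an unadjusted p under 0.05, none of which passed an FDR of 0.05, and circles mark the 6 transcripts described by ID; the cloud narrows and tilts upward at the abundant end.

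For most transcripts the data bounded the change without resolving it. Across all tested transcripts the median difference was 1.28-fold in either direction, and a typical 95% interval reached 1.96-fold to either side. The interval lay within 2-fold of no difference for 31.2% of transcripts and within 4-fold for 72.8%. Among transcripts from 23.2 CPM the share within 4-fold was 88.4%, and among those of up to 2.92 CPM, where counts are fewest, it was 45.2%. A fitted difference of at least 4-fold was found for 329 transcripts, 2.84% of those tested. These intervals are not adjusted for the number of transcripts.

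The number of transcripts under an unadjusted p of 0.05 depended most on the third post-Tc library. Without post-Tc 3 the count at an unadjusted p under 0.05 was 1793, or 14.7% of 12160 tested, beside 5.33% in the main fit. Of these 831 were higher and 962 lower, and 472 were among the 617. Still no transcript passed an FDR of 0.05 (smallest 0.322). The count was 344 (2.84% of those tested) without post-Tc 1 and 420 (3.55%) without post-Tc 2. It was between 537 (4.46%) and 608 (5.03%) without any 1 on-Tc library. Among the 349 transcripts higher post-Tc, post-Tc 3 was the library nearest to the on-Tc level for 78.5%, against 7.74% for post-Tc 1 and 13.8% for post-Tc 2. Among the 268 lower it was the nearest for 47%. With post-Tc 1, post-Tc 2 and control 2 all left out, 333 were under 0.05, 69 higher and 264 lower, and 61 of these were among the 617. That fit assumes that the lone post-Tc library varies like those of the other groups.

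**Figure D3:**
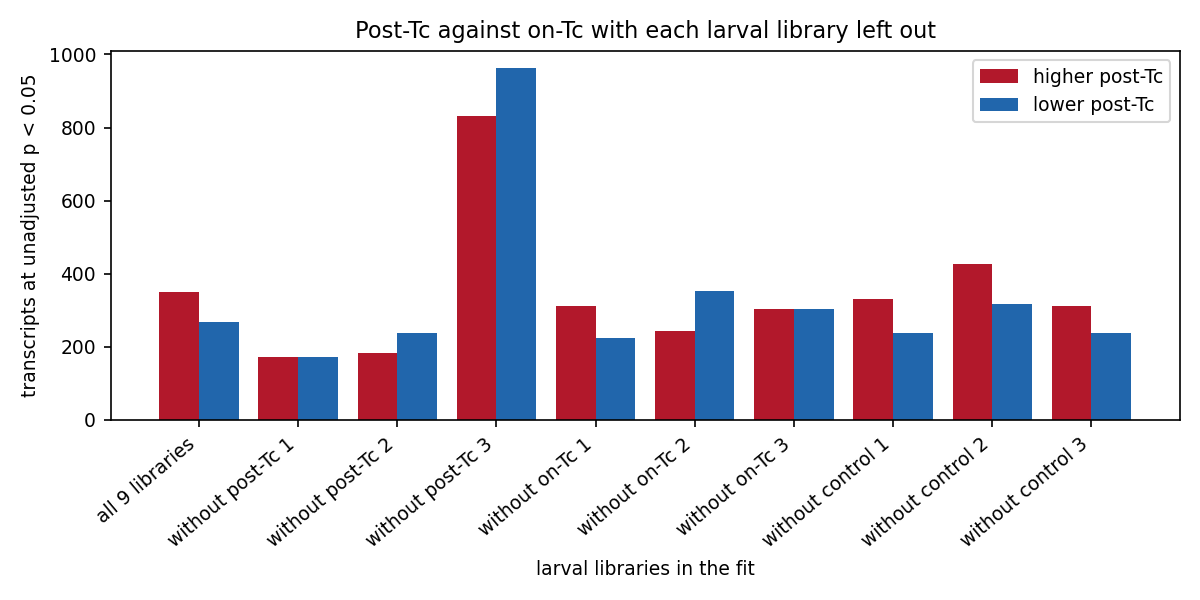
Number of transcripts at an unadjusted p under 0.05 for post-Tc against on-Tc larvae, split into higher and lower post-Tc, in the fit of all 9 larval libraries and with each library left out. The count of 617 (5.33% of those tested) becomes 1793 (14.7%) without post-Tc 3 and 344 (2.84%) without post-Tc 1. No bar contains a transcript at an FDR under 0.05.

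Many of the higher values in post-Tc 1 and post-Tc 2 were shared with an untreated library. Of the 349 transcripts higher post-Tc, 183 (52.4%) had post-Tc 1, post-Tc 2 and control 2 above all 6 other larval libraries, a pattern found in 10.1% of all tested transcripts. Choosing transcripts that are higher post-Tc already favours this order of post-Tc and on-Tc libraries, so the shares are not comparable as a test. Of the 268 lower, 64 (23.9%) had the same 3 libraries below the others, against 10.4% of all. What sets these 3 libraries apart was not tested.

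Controls were set beside both groups. Among the 422 transcripts with an unadjusted p under 0.05 and groups that did not overlap, the control mean was nearer to the post-Tc mean for 194 and nearer to the on-Tc mean for 228. It lay between both for 369 of them in all, 170 on the post-Tc side and 199 on the on-Tc side. Any further group tends to fall between groups picked for standing apart. All 3 post-Tc libraries were above the 6 other larval libraries for 134 transcripts (1.16%) and below them for 108 (0.932%). All 3 on-Tc libraries were above the 6 others for 89 (0.768%) and below them for 125 (1.08%). None of these shares exceeds what ranks of unrelated libraries would give.

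Among transcripts lower post-Tc with a mean of at least 1 CPM and groups that did not overlap, the smallest p was that of g7754.t1. It had 3.58, 2.41 and 4.48 CPM in post-Tc larvae (132, 144 and 122 counts) and 12.03, 11.87 and 13.88 CPM in on-Tc larvae (391, 558 and 630 counts). Each group was tight and they lay well apart, with controls between them at 6.47, 5.37 and 3.36 CPM, 1 of which lay inside the post-Tc range. The log2 difference was -1.86 ± 0.33 (SE; lower in 3 of 3 post-Tc libraries; unadjusted p 0.000351; edgeR FDR 0.811), and it lay between -2.11 and -1.65 with a post-Tc or on-Tc library left out. The log2 difference was -1.49 with post-Tc 1, post-Tc 2 and control 2 left out together. Adults gave -0.06 for g7754.t1 in the same comparison, and the difference between stages had an interaction FDR of 0.368 by edgeR.

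Within the same limits, the transcript with the smallest p among those higher post-Tc was g8053.t1. It stood at 4.12, 3.47 and 3.49 CPM in post-Tc larvae and at 1.85, 1.26 and 1.06 CPM in on-Tc larvae. All 3 post-Tc libraries were above the 6 other larval libraries, since controls held 1.66, 1.64 and 2.09 CPM. The log2 difference was 1.41 ± 0.33 (SE; higher in 3 of 3 post-Tc libraries; unadjusted p 0.00192; edgeR FDR 0.811) and 1.33 with post-Tc 1, post-Tc 2 and control 2 left out. The difference in adults had nearly the same size, 1.46 on the log2 scale (edgeR FDR 0.219). It rested on 1 library: in a scaling of all 18 libraries, adult post-Tc libraries held 1.09, 6.84 and 1.90 CPM and adult on-Tc libraries 1.21, 1.47 and 0.908 CPM.

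Within the limits of a mean of at least 1 CPM, an unadjusted p under 0.05 and groups that did not overlap, the largest fitted differences belonged to transcripts near absent from a group, and each was carried mostly by 1 library. For g6638.t1, the largest within these limits among those higher, post-Tc libraries had 45, 625 and 4 counts (1.22, 10.4 and 0.147 CPM) and on-Tc libraries 2, 0 and 2 counts. All on-Tc libraries were under a floor of 3 counts per library, against which the post-Tc mean was at least 53.1-fold higher. Controls reached 2.34, 4.51 and 27.7 CPM, above the on-Tc level in every library. The fitted log2 difference of 6.81 (edgeR FDR 0.811) was 4.28 without post-Tc 2 and 2.08 with post-Tc 1, post-Tc 2 and control 2 left out. In adults this transcript had at most 0.0605 CPM in any library.

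The largest fitted difference within the same limits among those lower was that of g19373.t1. Post-Tc libraries had 1, 3 and 2 counts of it and on-Tc libraries 11, 1054 and 54 counts, or 0.338, 22.4 and 1.19 CPM. All post-Tc libraries were at or under the floor of 3 counts, against which the on-Tc mean was at least 99.2-fold higher. Among on-Tc libraries the second held 18.9 times the level of the next, and without it the fitted log2 difference of -7.28 (edgeR FDR 0.811) became -3.91. With post-Tc 1, post-Tc 2 and control 2 left out the difference was -6.72. Controls had 36, 6 and 6 counts, or 0.573, 0.120 and 0.0747 CPM, and 1 of them lay inside the on-Tc range. Post-Tc libraries held 0.0271, 0.0501 and 0.0734 CPM. At so few counts the order of the lower controls and the post-Tc libraries was not resolved. By DESeq2 all 4 of these transcripts were called, with adjusted p of 0.000652 for g7754.t1, 0.0106 for g8053.t1, 0.00525 for g6638.t1 and 0.000365 for g19373.t1.

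**Figure D4:**
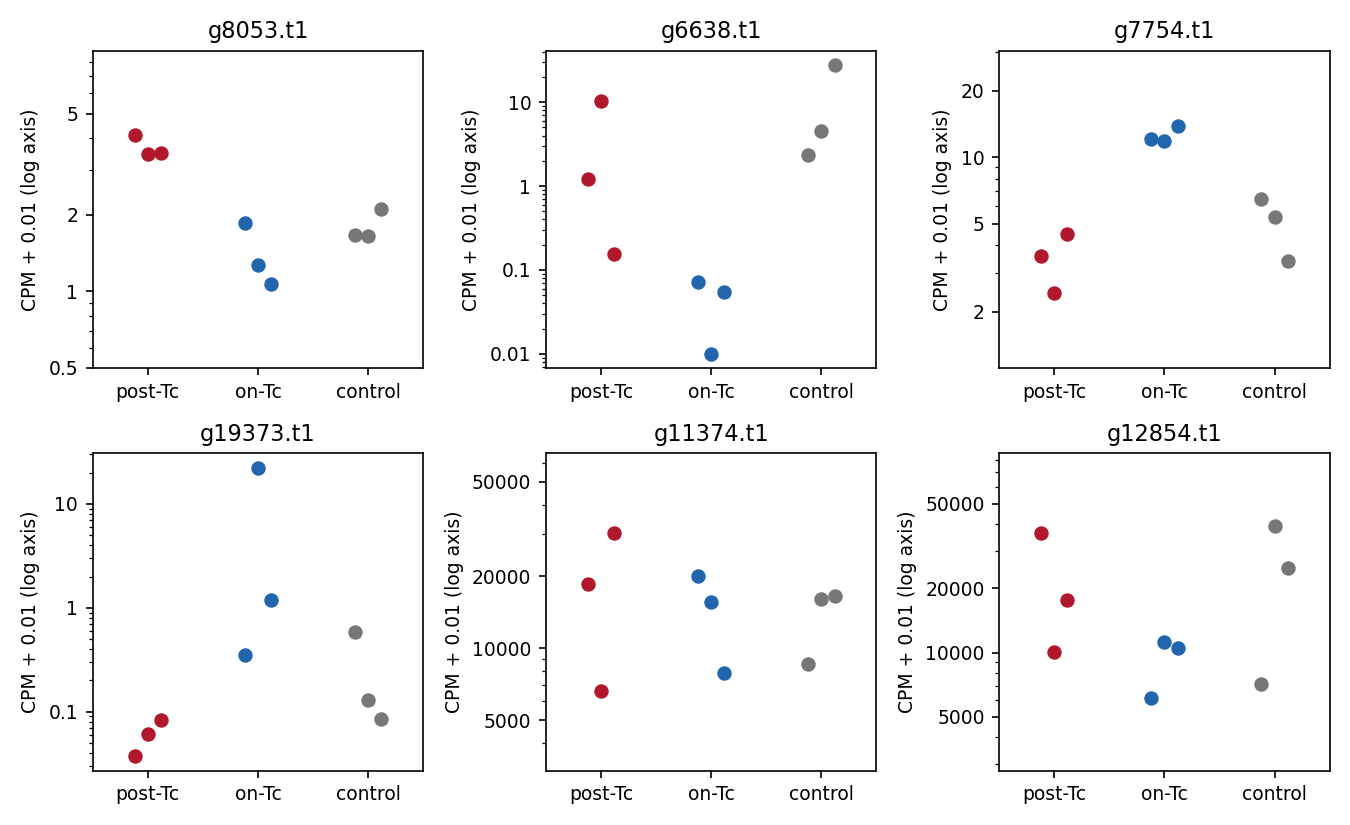
CPM plus 0.01 on a log axis in each larval library for 6 transcripts, with groups from left to right and replicates 1 to 3 within a group. Post-Tc and on-Tc points are separate for g8053.t1, g6638.t1, g7754.t1 and g19373.t1, which were picked for that, and overlap for the abundant g11374.t1 and g12854.t1.

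The 22 transcripts called by DESeq2 were 11 higher and 11 lower post-Tc. All 22 had an unadjusted p under 0.05 by edgeR, and in 20 the groups did not overlap, as in 9.49% of all tested transcripts; having been called, they were bound to be richer in such groups. Their absolute log2 differences ran from 0.823 to 7.44 with a median of 2.495, and their mean levels from 0.199 to 537 CPM with a median of 2.43. In 12 of the 22 the 3 post-Tc libraries lay beyond all 6 other larval libraries, and in 12 the 3 on-Tc libraries did. Some had both patterns, and the same choice favours each. Over all tested transcripts post-Tc libraries were above the 6 others in 1.16% and below in 0.932%. On-Tc libraries were above in 0.768% and below in 1.08%. In 9 of the 22 a single library held over 50% of the CPM summed over the 6 libraries. The same was not counted over all tested transcripts, so this count does not set the 22 apart. In 2 of the 22 the libraries post-Tc 1, post-Tc 2 and control 2 stood above or below all others. Among all tested transcripts they stood above in 10.1% and below in a further 10.4%, and both shares together are the background for the 2.

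Transcripts with adjacent gene numbers had related fitted differences. The files give no coordinates, so adjacency here is only that of the numbers. Over 8325 pairs of adjacent gene numbers the fitted log2 differences correlated at 0.245 across pairs, against -0.0106 for numbers 100 apart, and at 0.216 to 0.260 with a library left out; pairs share libraries, and genes are not independent replicates. When a gene number had an unadjusted p under 0.05, the next number did so in the same direction in 43 of 409 pairs (10.5%). It did so in the opposite direction in 1, where 5.32% of gene numbers had such a p in either direction. Without post-Tc 2 it was 14 of 276 pairs (5.07%, beside 3.56% of gene numbers), without post-Tc 1 26 of 217 (12%, beside 2.85%) and without post-Tc 3 212 of 1355 (15.6%, beside 14.8%). With post-Tc 1, post-Tc 2 and control 2 left out it was 12 of 216 (5.56%, beside 2.68%), and the correlation was 0.181. Each share of gene numbers set beside these pairs counts both directions, whereas the pairs count the same direction only. The share to be set beside them is therefore smaller in every fit, and was not computed. The 43 pairs in the fit of all 9 libraries formed 33 runs of 2 to 5 gene numbers, and near-identical copies or overlapping genes among them could share reads.

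The runs differed in which libraries carried them. The longest, 5 gene numbers all higher post-Tc, summed to 80.4, 229.6 and 6.42 CPM in post-Tc libraries and to 5.81, 5.47 and 5.82 CPM in on-Tc libraries. Control 2 held 250.6 CPM, against 5.92 and 7.73 CPM in the other controls, so that the run was high in the 3 libraries that stand apart and at the on-Tc level, or just above it, in post-Tc 3. A run of 3 gene numbers that includes g8053.t1 summed to 11.86, 15.22 and 13.98 CPM post-Tc and to 8.09, 5.60 and 7.05 CPM on-Tc. Its controls were close to the on-Tc level at 7.42, 8.03 and 7.57 CPM, and the 3 post-Tc libraries were above all 6 others. A run of 4 that includes g6638.t1 summed to 6.72, 44.61 and 2.055 CPM post-Tc and to 3.29, 0.383 and 1.34 CPM on-Tc, where post-Tc 3 fell inside the on-Tc range and controls were higher than on-Tc at 18.95, 15.95 and 113.4 CPM. No member of the runs passed an FDR of 0.05 by edgeR.

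**Figure D5:**
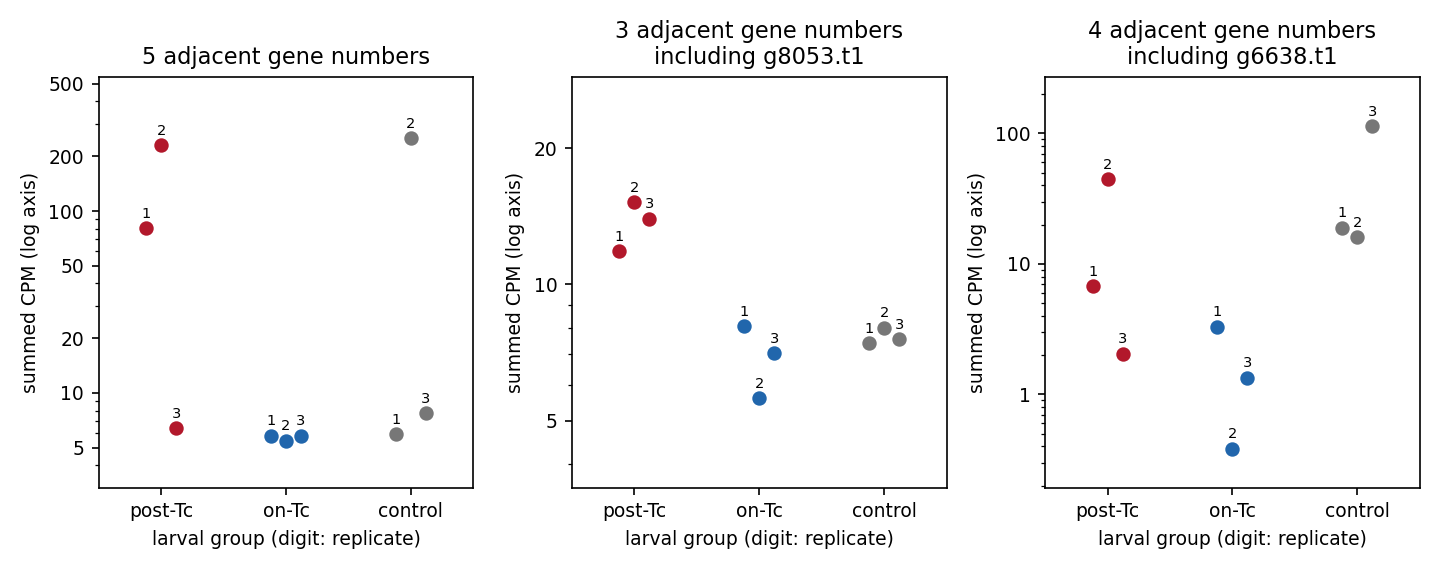
Summed CPM on a log axis in each larval library for 3 runs of adjacent gene numbers whose members had an unadjusted p under 0.05 and were higher post-Tc; digits give the replicate. The run of 5 is high in post-Tc 1, post-Tc 2 and control 2 only, the run of 3 is higher in all post-Tc libraries than in the 6 others, and the run of 4 overlaps between post-Tc and on-Tc.

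The same withdrawal was sampled in adults, in libraries that share none with the larvae. Beside the 0 called and the 5.33% at an unadjusted p under 0.05 in larvae, edgeR called 50 of 11435 adult transcripts (0.437%) after withdrawal, and 2460 (21.5%) had an unadjusted p under 0.05. A direct test of the difference between stages called 0 of 12599 transcripts (0%) by edgeR, with a smallest FDR of 0.059. At an unadjusted p under 0.05 by edgeR there were 1335, or 10.6%. Of the same 12599 transcripts DESeq2 called 138 and limma-voom 0.

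The transcripts called in adults were then read in larvae. Their adult values are inflated by having been picked on the adult libraries, so a smaller larval value is no finding, and none passed the test between stages (smallest edgeR FDR 0.322). Of the 43 transcripts called higher post-Tc in adults, 33 were fitted higher in larvae, beside 49.8% of all transcripts tested in larvae. Their median log2 difference was 0.43 in larvae and 1.62 in adults. In 1 of the 43 the larval unadjusted p was under 0.05, beside 5.33% of all transcripts tested in larvae. For the 7 called lower in adults, 5 were lower in larvae, with medians of -0.30 and -1.36. The larval direction depended on which libraries were fitted: 31 of the 43 were higher without post-Tc 1 (median 0.25), 16 without post-Tc 2 (median -0.12), 37 without post-Tc 3 (median 0.79), and 1 of the 43 with post-Tc 1, post-Tc 2 and control 2 left out (median -1.08).

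Across the 10636 transcripts tested in both stages, larval and adult log2 differences had a Pearson correlation of 0.156 and a Spearman correlation of 0.212, and 57.9% had the same sign. Without post-Tc 2 the Pearson correlation was -0.00624 and the shared signs 48.7%. Without on-Tc 2 it was 0.0439, and without post-Tc 3 it was 0.240. With post-Tc 1, post-Tc 2 and control 2 left out it was -0.199. Of the 512 transcripts at an unadjusted p under 0.05 in larvae that were tested in adults, 104 (20.3%) were also under 0.05 in adults, beside 21.8% of all transcripts tested in both stages.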

How the data were processed

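Poly(A)-selected midgut RNA was made into NEBNext libraries, per the labels' protocols. The deposited file lists unscaled read counts for each predicted transcript (22420 transcripts of 21161 gene numbers), as judged from whole numbers and unequal column sums. Per the submitters' processing notes the tools were Trimmomatic, STAR, featureCounts and DESeq2. Their versions and roles, and the genome build, annotation and strand setting, are not given in the sources used for this work. From 66.3% to 70.7% of counts of 1 to 20 were even in the 6 libraries, the pattern of read pairs counted as 2, so halved counts were tried.

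Columns were matched to samples by library name and grouped by title. Counts of the 9 larval libraries were filtered (filterByExpr, minimum count 10, minimum total 15), scaled by TMM and tested with edgeR 4.0.16 (glmQLFit, glmQLFTest) in R 4.3.3, with Benjamini-Hochberg adjustment over all transcripts tested. Sharing the spread with controls left 6 residual degrees of freedom. Standard errors and 95% intervals were derived from the F statistic. Principal components and library distances used log2 CPM with a prior count of 2. The test between stages used all 18 libraries. Alternatives used DESeq2 1.42.0 and limma 3.58.1. The steps were tested on simulated counts. Figures were drawn with matplotlib 3.10.9.

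Named transcripts had an unadjusted p under 0.05, a mean of at least 1 CPM over the 6 libraries and groups that did not overlap: in each direction the smallest p and the largest fold change, plus the 2 most abundant transcripts. Members, lists and tests were chosen with earlier results of these data known. Lists of genes for immunity, digestion, detoxification, redox, mitochondria, heat shock, the cell cycle, the peritrophic matrix and storage proteins, and markers of cell types, were set by gene name and could not be used. Floors of 3 counts and intervals cover counting error or library spread only, since the libraries carry no molecular identifiers and reads may be copies of 1 molecule.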

Additional observations from a re-analysis of the deposited data

How the results depend on the processing

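The count of 0 transcripts at an FDR of 0.05 in larvae held in 22 of 23 alternatives, and DESeq2 gave 22. Of the 23, an added log2 fold threshold of 1 on the main fit could only give 0. With a library left out the count was 0 in every fit (range 0 to 0). The count at an unadjusted p under 0.05 was 948 with all 18 libraries, 333 with post-Tc 1, post-Tc 2 and control 2 left out together (chosen after seeing the data), and 344 to 1793 with a single library left out. In the other alternatives it stayed within 1.5 times of 617. The 4 transcripts picked for their difference kept their direction in every alternative in which they were tested. Having been picked for groups that did not overlap, they could hardly turn, so this is no check of them. Of the alternatives run only DESeq2 called these 4 transcripts. The abundant g11374.t1 turned to -0.25 without post-Tc 3, in a range of -0.25 to 0.75 with a library left out. The difference in detected transcripts, -15 in all 6 libraries, ranged from -228.5 to 367.5 with a library left out and was also above 0 (29.5) without on-Tc 3; the cause was not tested. Of 12599 transcripts the test between stages gave 138 by DESeq2 and 1 with RLE factors. With a library left out it gave 0 to 5, with 5 without adult on-Tc 2 and 2 without larval on-Tc 2.

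Same-numbered libraries did not vary together. The correlations of the deviations of post-Tc and on-Tc libraries were 0.0645, -0.39 and -0.167 for replicates 1, 2 and 3, so the numbers were not taken as pairs. With the replicate number as a block, 0 transcripts passed in larvae (441 at an unadjusted p under 0.05) and 0 between stages, and 68 of the 100 most abundant transcripts were fitted higher. The median change of those 100 was 0.33 on the log2 scale with the block. With the block the log2 difference was 1.43 for g8053.t1, 6.73 for g6638.t1, -1.87 for g7754.t1, -6.60 for g19373.t1, 0.23 for g11374.t1 and 1.32 for g12854.t1, and it changed no call.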
